A study of Ovis aries with 16 samples.

Results

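The leptin transcript ob (ENSOART00020007691) and the HOXC9 transcript (ENSOART00020027741), both used as markers of white adipose tissue, were followed in perirenal adipose tissue of fetal sheep. Both rows were found by the transcript identifiers given in the study, and they are 2 of the 35219 transcripts in the deposited table. RNAseq was performed on 16 libraries, 1 per fetus, from singleton pregnancies of Columbia-Rambouillet crossbred ewes. Control male (MC) and control female (FC) fetuses came from pair-fed ewes kept at a moderate temperature. Growth-restricted male (MFGR) and growth-restricted female (FFGR) fetuses came from ewes exposed to high ambient temperature for part of gestation, labelled Hyperthermia, which leads to placental insufficiency. Each of the 4 groups had 4 fetuses, and all were sampled near term. Maternal heat and growth restriction came together in this model, so a response to one cannot be told apart from a response to the other. HOXC9 was lower in males than in females, with a male mean 0.463 times the female mean in controls and 0.412 times in growth-restricted fetuses (n = 4 each). Of the 17291 transcripts tested, 12.6% passed the test as lower in MC than in FC and 16.2% as lower in MFGR than in FFGR. For HOXC9, a sex difference in level and one in how reads were assigned cannot be told apart. Leptin did not pass the test in any comparison. Its FFGR values were all below its FC values, as was the case for 1.62% of the 17291 transcripts tested.

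Leptin is a hormone that adipocytes secrete in proportion to their lipid stores, and it acts through the leptin receptor in the hypothalamus and other tissues on food intake and energy use. HOXC9 is a homeobox transcription factor of the HOXC cluster, whose genes pattern the body from head to tail in the embryo and remain expressed in adult fat according to depot. It is more abundant in white than in classical brown adipose tissue, for which reason it is used as a white adipose marker. In fetal sheep, perirenal fat is the main fat depot, it holds brown adipocytes rich in UCP1 before birth, and it turns into white fat in the weeks after birth.

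The values are TPM, which are scaled by transcript length and sum to 1000000 in every library, so levels of different transcripts can be compared. The reads behind a value are not known from TPM, and with the depth unknown a counting error could not be computed. Each library had between 20153 and 21917 transcripts with a value above 0. The tissue label was checked against the adipose markers that could be matched. FABP4, a fatty acid carrier of mature adipocytes, lay between 1416 and 10369 TPM, and ADIPOQ, the adipocyte hormone adiponectin, between 1741 and 3293 TPM. UCP1, the uncoupling protein of brown adipocytes, lay between 1317 and 4430 TPM and was among the 104 most abundant transcripts of every library. The tissue therefore carried a defining brown marker at high level in all 16 libraries beside the 2 white markers. Transcripts were named only from the identifiers that the study prints for its markers and mitochondrial genes. Markers of endothelium, macrophages and blood, smooth muscle and nerve, and adrenal and kidney are not among them (0 of 7, 0 of 8, 0 of 7 and 0 of 8 genes). Of 12 genes of preadipocytes and fibroblasts only THY1 is. The mix of cell types in each piece of tissue is therefore largely unmeasured here. In bulk tissue, fewer cells of a type and less RNA per cell cannot be told apart.

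The leptin transcript was present in every fetus, at a level far below FABP4, ADIPOQ and UCP1. In MC the values were 18.8, 47.9, 24.6 and 25.9 TPM in the first to the fourth fetus, and in MFGR they were 38.1, 11.5, 15.2 and 31.9 TPM. In FC they were 23.9, 17.9, 46.3 and 21.5 TPM, and in FFGR they were 15.6, 16.9, 10.5 and 9.96 TPM. The second MC fetus and the third FC fetus stood highest, and the FFGR fetuses were all low and close together. The MFGR fetuses overlapped with FFGR and with both control groups. Mean levels were 29.3 ± 12.8 TPM for MC, 27.4 ± 12.8 for FC, 24.2 ± 12.9 for MFGR and 13.2 ± 3.52 for FFGR (SD, n = 4). Leptin was higher than 69.0% to 93.0% of the transcripts listed above 0 in the same library. Its spread between fetuses of one group was wide, with an SD of 0.59 on the log2 scale, larger than for 83.0% of the 17291 transcripts tested.

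HOXC9 was a low transcript in all fetuses, and its 4 groups formed 2 levels. In FC the values were 11.1, 8.04, 10.2 and 9.58 TPM, and in FFGR they were 8.04, 7.60, 7.61 and 9.94 TPM. In MC they were 3.80, 3.72, 6.94 and 3.55 TPM, and in MFGR they were 2.36, 3.35, 4.40 and 3.56 TPM. All 8 females were above all 8 males, as was the case for 8.48% of the transcripts tested. The nearest values of the sexes were 6.94 TPM in the third MC fetus and 7.60 TPM in the second FFGR fetus. Mean levels were 9.73 ± 1.29 in FC, 8.30 ± 1.12 in FFGR, 4.50 ± 1.63 in MC and 3.42 ± 0.840 TPM in MFGR (SD, n = 4). HOXC9 was higher than 62.4% to 69.97% of the listed transcripts in female libraries and than 45.7% to 60.9% in male libraries. Its SD within groups was 0.27 on the log2 scale, larger than for 37.8% of the transcripts tested, so it varied less between fetuses than leptin did.

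**Figure D1:**
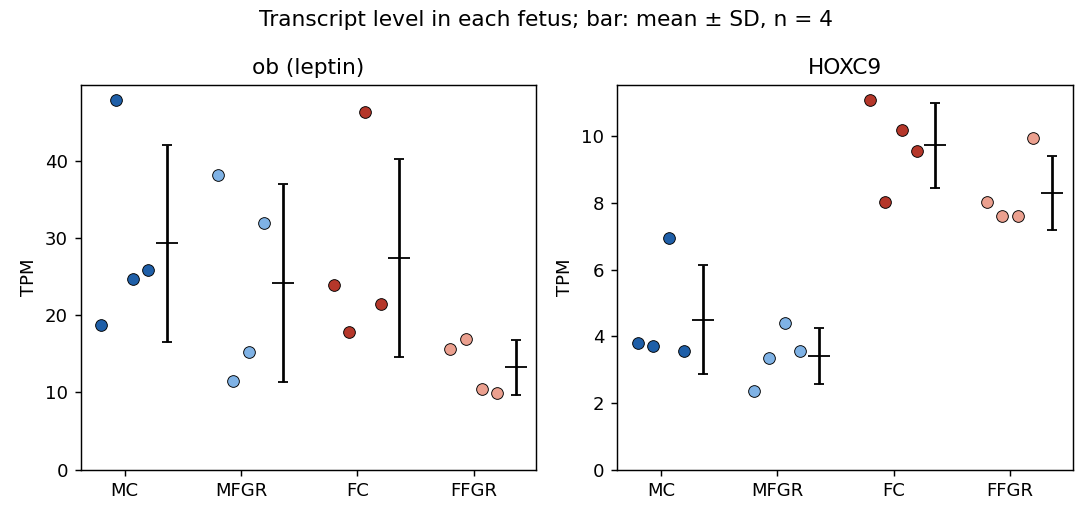
Level of ob (leptin, left) and HOXC9 (right) in TPM for each of the 16 fetuses, by group, with the mean ± SD of 4 fetuses beside the points. HOXC9 lies at 7.60 TPM or above in every female and at 6.94 TPM or below in every male, while ob overlaps between all groups except FFGR with FC and with MC. Of all transcripts tested, 8.48% were lower in all 8 males than in all 8 females. FFGR lay below FC without overlap for 1.62% and below MC for 8.17%.

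Differences between groups were fitted in limma as log2(TPM + 1), for the 17291 transcripts that reached 1 TPM in 3 or more libraries, as differences of group means. To be called, a transcript needed a fold above 1.5 and, after adjustment by Benjamini and Hochberg, a p under 0.05. The pseudocount of 1 understates the fold of transcripts as low as HOXC9. The 2 transcripts were chosen with earlier results of these data known.

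HOXC9 was called in both comparisons between the sexes. In MC it was lower than in FC by a log2 fold change of -0.995 (SE 0.19, 95% interval -1.40 to -0.59, limma adjusted p = 0.00144). Between MC and FC, 18.0% of all transcripts tested were called, 12.6% as lower in MC. Between the growth-restricted fetuses, which are other animals, the log2 fold change of MFGR against FFGR was -1.09 (SE 0.19, 95% interval -1.49 to -0.68, adjusted p = 0.000601). There 21.1% of the transcripts were called, 16.2% as lower in MFGR. Averaged over both conditions, the difference between males and females was -1.04 (SE 0.14, adjusted p = 2.05e-05), in a comparison that called 23.2% of the transcripts, 17.3% as lower in males. An exact permutation test that exchanged the sex labels within each condition gave p = 0.000408, two-sided, the smallest that its 4900 arrangements allow.

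A sex difference was common among the transcripts of this tissue, and HOXC9 was one of many. All MC values were below all FC values for 14.9% of the transcripts tested, and all MFGR values below all FFGR values for 21.0%. Over both conditions, 8.48% of the transcripts were lower in all 8 males than in all 8 females, as HOXC9 was. In size, 13.8% of the transcripts differed between MC and FC by at least as much as HOXC9, and 13.5% between MFGR and FFGR. By p, HOXC9 was in place 1241 in MC against FC and in place 1193 in MFGR against FFGR. The median log2 fold change of all tested transcripts was -0.07 in MC against FC and -0.17 in MFGR against FFGR. Relative to these medians HOXC9 was at -0.92 in both.

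The libraries of the sexes also differed in the levels of ND6 and ND5 relative to each other, neighbouring mitochondrial genes read from opposite strands. The level of ND6 divided by that of ND5 was 0.662 to 0.753 in MC and 0.693 to 0.702 in MFGR, against 0.0566 to 0.0867 in FC and 0.0657 to 0.0832 in FFGR. THY1, a surface protein of preadipocytes and stromal cells, had one transcript that was lower in males and one that was not. THY1-202 was lower in MC than in FC (log2 fold change -2.21, limma adjusted p = 0.00301), while THY1-201 had a log2 fold change of 1.15 (adjusted p = 0.0874). For HOXC9 and leptin, 1 transcript each could be matched, so a shift between transcripts of one gene was not measurable. A sex difference in level and a sex difference in how reads were assigned cannot be told apart for HOXC9.

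**Figure D2:**
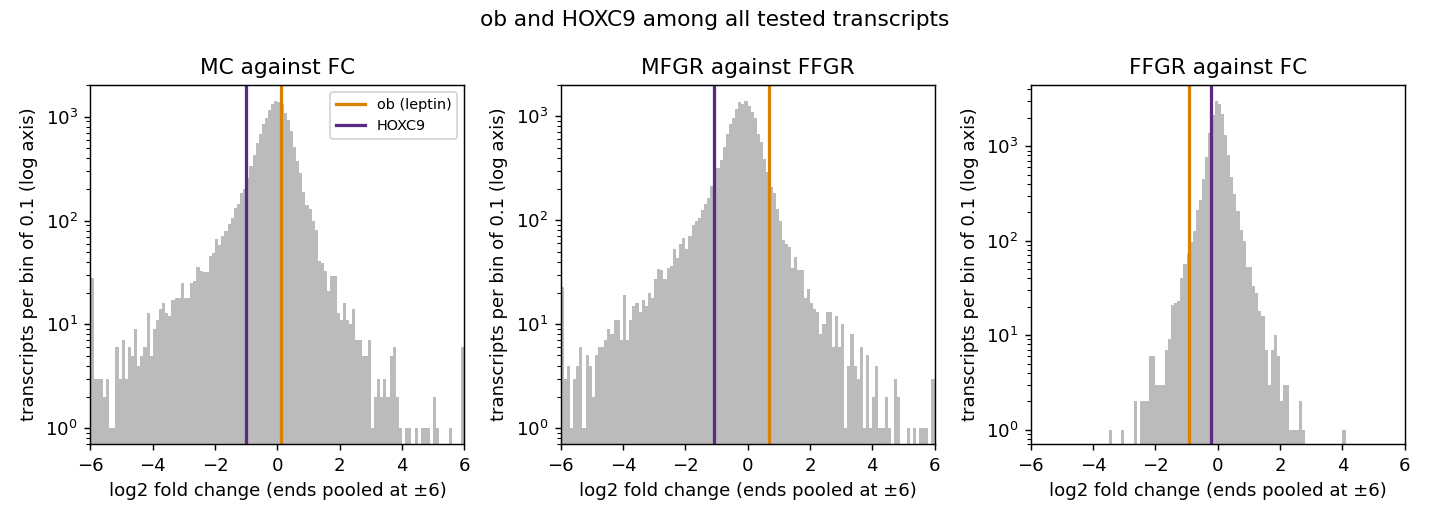
Number of tested transcripts (log axis) by log2 fold change in bins of 0.1 for 3 comparisons, with ob and HOXC9 marked by vertical lines. HOXC9 lies at -0.995 and -1.09 in the comparisons between the sexes, on the shoulder of a wide distribution, and ob lies at -0.93 in the narrow distribution of FFGR against FC.

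A difference in HOXC9 between growth-restricted and control fetuses was not detectable in either sex. The log2 fold change was -0.30 in MFGR against MC (95% interval -0.70 to 0.11, limma adjusted p = 0.603, 0.0463% of all transcripts called) and -0.21 in FFGR against FC (95% interval -0.61 to 0.20, adjusted p = 0.955, 0.0231% called). In both sexes the growth-restricted and control values overlapped. With 1 library left out, the first value ran from -0.40 to -0.11, the latter without the third MC fetus, and the second from -0.29 to -0.14. The intervals include a fall by a fold of 1.5 as well as no change. Averaged over both sexes the log2 fold change was -0.25 (95% interval -0.54 to 0.04, limma adjusted p = 0.599), and limma called 0 transcripts in this comparison, where 9.30% had an unadjusted p under 0.05. The exact permutation test within each sex for HOXC9 gave p = 0.0629, two-sided. The sex difference of HOXC9 was not shown to depend on growth restriction, with an interaction of -0.09 (95% interval -0.67 to 0.48, adjusted p = 0.942, 0.0116% of the transcripts called).

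Every FFGR fetus had less leptin transcript than every FC fetus, and the difference did not pass. The FFGR values were 9.96 to 16.9 TPM and the FC values 17.9 to 46.3 TPM, with a narrow gap between them. The FFGR mean was lower than the FC mean by a log2 fold change of -0.93 (SE 0.38, 95% interval -1.74 to -0.13), with an unadjusted p of 0.0265 and an adjusted p of 0.764 in limma. The exact permutation test of these 8 fetuses gave p = 0.0286, two-sided, the smallest that 4 against 4 allow, and 0.0857 after adjustment over the 6 pairs of groups. Between FFGR and FC, 5.97% of the transcripts tested had an unadjusted p under 0.05, 1.62% had all FFGR values below all FC values, and 2.75% differed by at least as much as leptin. Without the third FC fetus, which had the highest leptin of the females, the log2 fold change was -0.66 (limma adjusted p = 1.00).

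In males, the difference in leptin with growth restriction did not pass. The log2 fold change of MFGR against MC was -0.34 (95% interval -1.15 to 0.47, limma adjusted p = 0.795), and the values of the groups overlapped. It ran from -0.60 without the first MFGR fetus to -0.05 without the second MFGR fetus. The first and the fourth MFGR fetuses, at 38.1 and 31.9 TPM, were above 3 of the 4 MC fetuses, and the second and the third were below all of them. The response of the sexes was not shown to differ, with an interaction of 0.59 (95% interval -0.55 to 1.74, adjusted p = 0.799) that ran from 0.32 without the third FC fetus to 0.88 without the second MFGR fetus. Averaged over both sexes, leptin in growth-restricted fetuses had a log2 fold change of -0.64 (95% interval -1.21 to -0.07, unadjusted p = 0.0313, adjusted p = 0.486 in limma). The exact permutation test within each sex gave p = 0.0514, two-sided.

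Leptin did not differ detectably between the sexes. The log2 fold change of MC against FC was 0.10 (95% interval -0.70 to 0.91, limma adjusted p = 0.877), and that of MFGR against FFGR was 0.70 (95% interval -0.11 to 1.51, adjusted p = 0.195). The first interval holds a difference of 1.5-fold in either direction and the second one in favour of males.

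**Figure D3:**
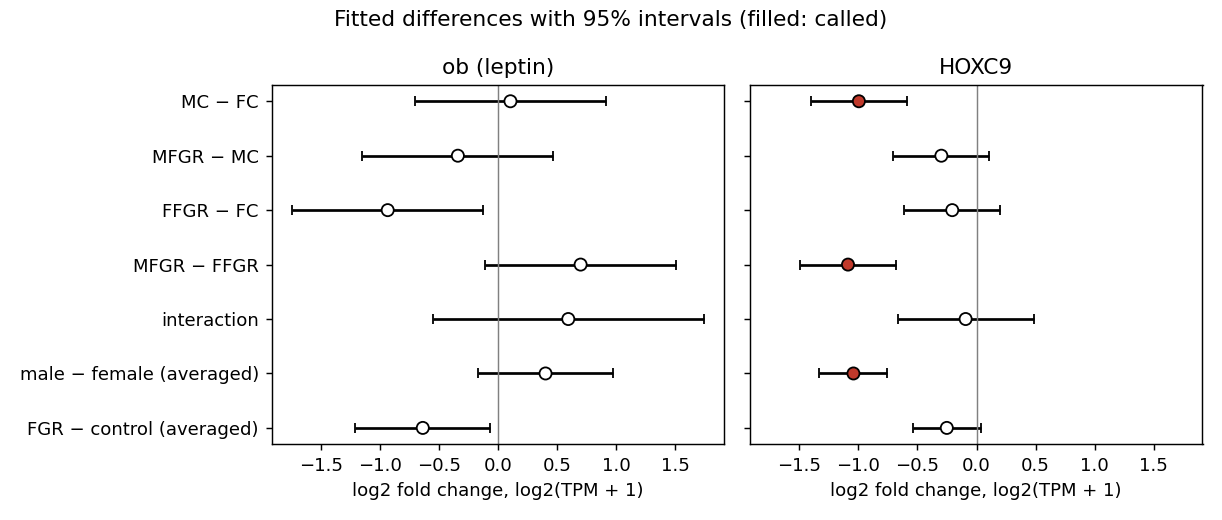
Fitted log2 fold change of ob (leptin, left) and HOXC9 (right) with its 95% interval for 7 comparisons on the log2(TPM + 1) scale, with called comparisons filled. For HOXC9 the 3 comparisons between the sexes lie between -1.09 and -0.995 and are called, and for ob no comparison is called.

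By mean TPM, leptin ran in the order MC, FC, MFGR and FFGR. In exact permutation tests of the 6 pairs of groups, two-sided and adjusted over the pairs of a gene, the neighbours in this order did not differ beyond their spread (adjusted p = 0.686 for MC and FC, 0.686 for FC and MFGR, 0.400 for MFGR and FFGR). Only the pairs of FFGR with MC and with FC had no overlap (adjusted p = 0.0857 each). FFGR lay below MC without overlap for 8.17% of all transcripts. HOXC9 ran in the order FC, FFGR, MC and MFGR. Its neighbours within a sex did not differ beyond their spread (adjusted p = 0.137 for FC and FFGR, 0.343 for MC and MFGR). The 4 pairs of a male and a female group all had no overlap (exact permutation test, adjusted p = 0.0429 each). Among all transcripts, 15.5% were lower without overlap in MC than in FFGR, and for 26.6% the ranges of MFGR and FC did not overlap in either direction.

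Both transcripts were also set against ADIPOQ in the same library, a measure that does not depend on the scaling of a library apart from the pseudocount. Per 1000 TPM of ADIPOQ, leptin was at 8.09 to 21.8 in MC, 5.19 to 21.3 in MFGR, 6.79 to 26.6 in FC and 3.43 to 8.65 in FFGR. Relative to ADIPOQ, FFGR overlapped with FC and with MFGR. The log2 difference of FFGR against FC was -1.05 (exact permutation test, two-sided, p = 0.0857), and it ran from -1.32 to -0.61 with 1 library left out, the last without the third FC fetus. The log2 difference of MFGR against FFGR was 1.11 (p = 0.0571 in the same exact test), and that of MC against FC and of MFGR against MC was 0.19 (p = 0.657) and -0.14 (p = 0.83). HOXC9 was at 1.49 to 3.00 per 1000 TPM of ADIPOQ in MC, 1.32 to 2.52 in MFGR, 3.05 to 5.85 in FC and 2.54 to 3.89 in FFGR. With a pseudocount of 1 TPM, the log2 difference of this ratio was -0.91 in MC against FC and -0.68 in MFGR against FFGR (exact permutation test, p = 0.0571 each). Without the pseudocount, the ratios of males and females did not overlap in either condition, by narrow gaps (3.00 against 3.05 in controls, 2.52 against 2.54 in growth-restricted fetuses). The share of all transcripts with such a gap in the ratio was not computed. In plain levels, 14.9% were lower without overlap in MC than in FC and 21.0% in MFGR than in FFGR. With the pseudocount, the third male of each group, with the highest HOXC9 of that group, met the female range. The third MC fetus was then at -8.185 and the second FC fetus at -8.186 on the log2 scale. The third MFGR fetus was at -8.34 and the first FFGR fetus at -8.45. The choice of the adipocyte transcript moved both results, and a ratio also includes the change of that transcript. FABP4 itself had log2 fold changes of -0.97 in MC against FC and 1.28 in MFGR against MC. It had -0.98 in FFGR against FC and 1.29 in MFGR against FFGR, and only the last was called in limma. With FABP4 in place of ADIPOQ, the log2 difference in HOXC9 was -0.03 in MC against FC (p = 1.00) and -2.38 in MFGR against FFGR (p = 0.0286), and leptin differed by 0.045 between FFGR and FC (p = 0.80), in the same exact test.

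Beside the 2 white markers, 7 transcripts of the other marker genes could be read in the same fits. UCP1 had log2 fold changes of -0.47 in MC against FC, 0.24 in MFGR against MC and -0.09 in FFGR against FC, and CIDEA-201, a lipid droplet protein of brown adipocytes, -0.22, -0.07 and 0.38. CIDEA-202, another transcript of the same gene, had 0.21, -0.18 and 0.29. ADIPOQ had -0.09, -0.20 and 0.12. None of these passed in limma. FABP4 had -0.97 in MC against FC (adjusted p = 0.127), 1.28 in MFGR against MC (adjusted p = 0.273) and -0.98 in FFGR against FC (adjusted p = 0.798). In FFGR against FC, FABP4 thus had a log2 fold change close in size to that of leptin, and neither passed. Of the 7, only THY1-202 was called in MC against FC, lower in MC as HOXC9 was. Among all transcripts tested, 18.0% were called in this comparison, 12.6% as lower in MC. In MFGR against FFGR, THY1-202 was called again (-2.85, limma adjusted p = 0.000332), as were CIDEA-201 (-0.67, adjusted p = 0.00247) and FABP4 (1.29, adjusted p = 0.0379). The other transcripts of these genes, CIDEA-202 (-0.26, limma adjusted p = 0.504) and THY1-201 (0.37, adjusted p = 0.598), were not called there. There 21.1% of all transcripts tested were called, 16.2% as lower in MFGR.

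Within each sex, the levels of leptin and HOXC9 were related to each other and to these 7 transcripts, giving 30 relations over 8 libraries each. By Pearson's r, 6 of the 30 had an exact permutation p under 0.05 before adjustment and 0 of the 30 after it (smallest 0.106). Across the females, leptin and FABP4 had the largest r (r = 0.881, exact p = 0.00563, adjusted p = 0.106, rho = 0.690 with exact p = 0.0694, adjusted p = 0.347). Without the 2 females farthest from the median FABP4, both of them FC, r was 0.589. The third FC fetus had the highest FABP4, 10369 TPM, and the highest leptin, 46.3 TPM, of the females. The 8 females hold both conditions, whose leptin values did not overlap, so this r includes the difference between FC and FFGR. In males the relation of leptin and FABP4 was weak (r = 0.277, exact p = 0.506, adjusted p = 0.799, rho = 0.310 with exact p = 0.462, adjusted p = 0.866). HOXC9 and THY1-202 had r = 0.799 across the males (exact p = 0.0311, adjusted p = 0.187, rho = 0.619 with exact p = 0.115, adjusted p = 0.493), and r = 0.545 without the third MC and the fourth MFGR fetus. The 8 males also hold both conditions, so this relation includes the difference between MC and MFGR. In the females, HOXC9 and THY1-202 had r = 0.141 (exact p = 0.741, adjusted p = 0.954). Leptin and HOXC9 had r = -0.207 in males (exact p = 0.655, adjusted p = 0.933, rho = -0.238) and r = 0.489 in females (exact p = 0.222, adjusted p = 0.605, rho = 0.548).

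**Figure D4:**
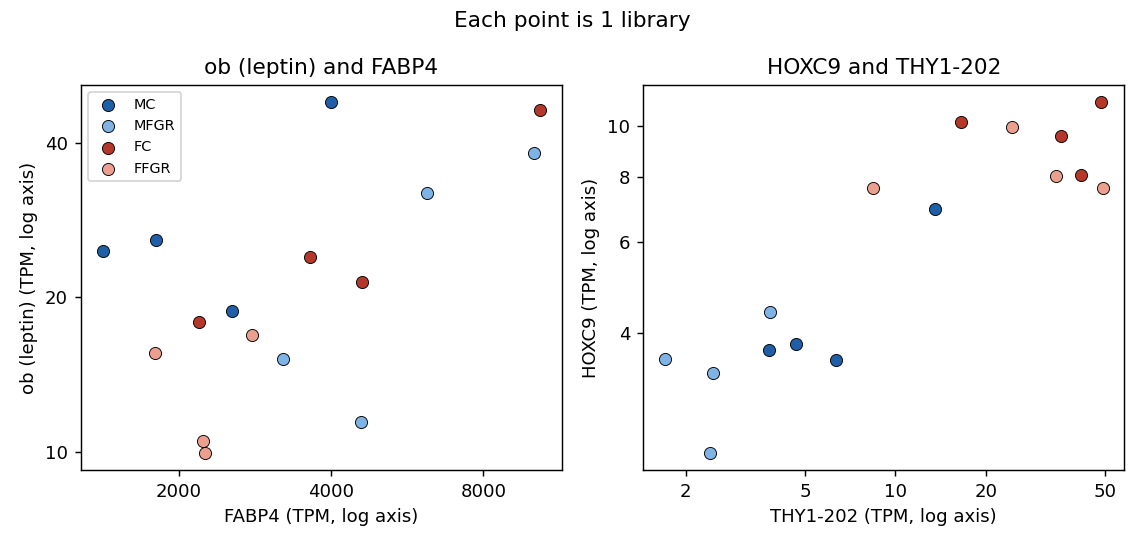
Level of ob (leptin) against FABP4 (left) and of HOXC9 against THY1-202 (right) in TPM on log axes, 1 point per library, coloured by group. The highest FABP4 and the highest ob of the females are in the same FC fetus, and the MC fetus with the highest HOXC9, 6.94 TPM, also has the highest THY1-202 of the males, 13.6 TPM. THY1-201, another transcript of the same gene, is not drawn, and its r with HOXC9 over the 16 libraries was -0.206.

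Of the named transcripts, FABP4 had the profile most like that of leptin and THY1-202 the profile most like that of HOXC9. As a description over the 16 libraries, Pearson's r of the log2 values was 0.562 for leptin and FABP4, the place 191 among 17290 transcripts, and 0.751 after the group means were subtracted, the place 36. For HOXC9 and THY1-202, r was 0.888, the place 572, and 0.365 after the group means were subtracted. THY1-201, another transcript of the same gene, had r = -0.206 with HOXC9, the place 13368, and 0.238 after the group means were subtracted. The r of 0.888 includes the gap between the sexes, and 1976 transcripts had an r above 0.8 with HOXC9, against 3 with leptin. The libraries share their scaling, which enters all of these values.

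Other genes of the leptin pathway and of the HOX clusters were not placed beside these 2. Transcripts were named only from the identifiers that the study prints for its markers and mitochondrial genes. Of 138 distinct genes in lists of leptin signaling, regulators of the leptin gene, HOX genes and cell type markers, 7 are among these. They include 0 of 19 genes of leptin signaling and 1 of 34 HOX genes and their cofactors, HOXC9 itself. These counts follow from that choice of names and do not show which genes are absent from the data. In the RefSeq sheep annotation of assembly ARS-UI_Ramb_v3.0, a later build than that of the deposited table, HOXC9 lies between HOXC8 and HOXC10 and the leptin gene, LEP, between LRRC4 and RBM28. The transcripts of these neighbours were not analysed here.

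**Figure D5:**
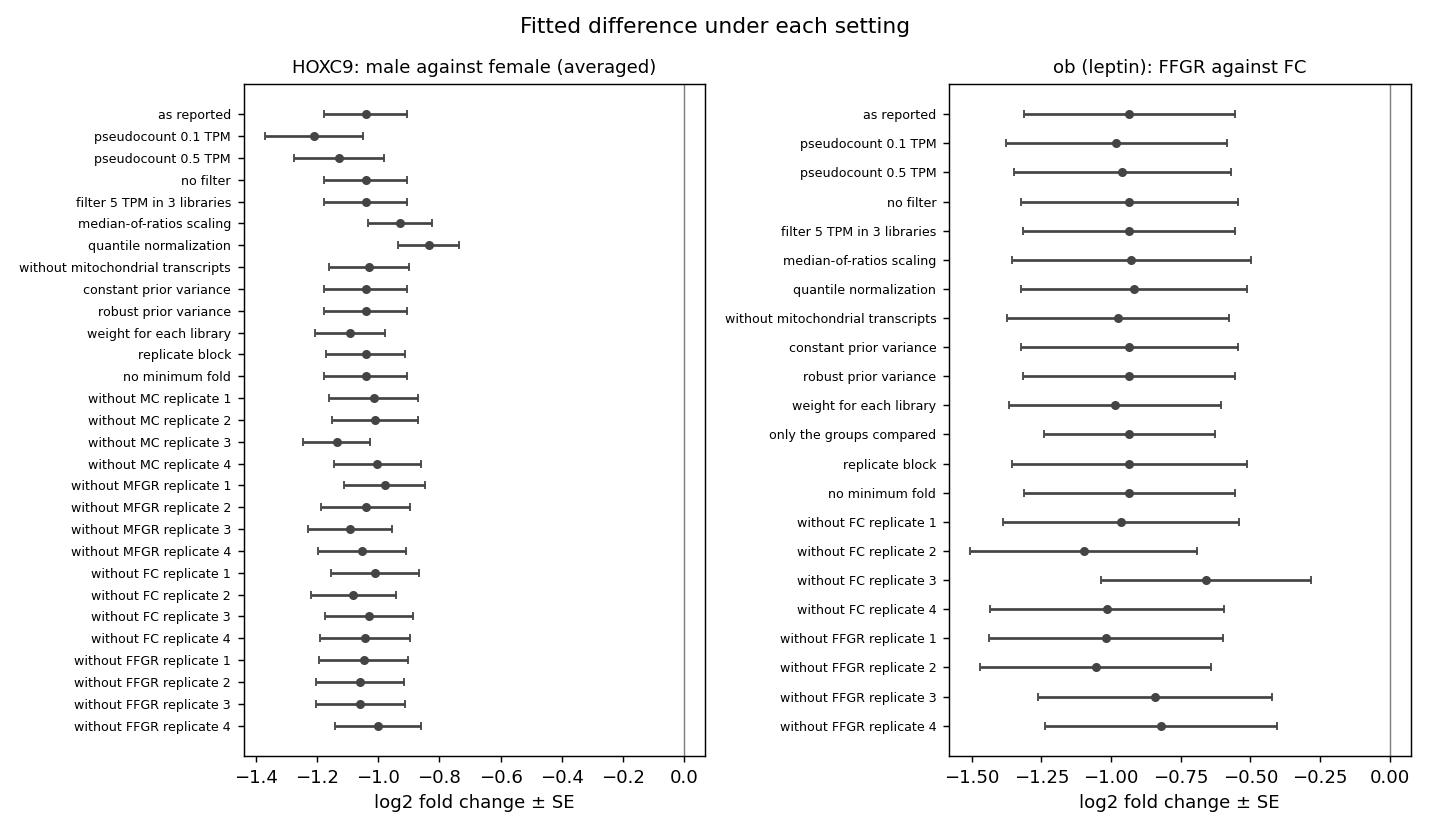
Fitted log2 fold change ± SE of HOXC9 in males against females averaged over both conditions (left) and of ob (leptin) in FFGR against FC (right) as reported and under each other setting. HOXC9 stays between -1.21 and -0.84, and ob between -1.10 and -0.66, the last without the third FC fetus.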

How the data were processed

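RNA of perirenal adipose tissue was sequenced from 16 fetuses. FastQC 0.11.9 was used by the authors for quality control. After removal of poor reads they quantified transcripts of Oar_rambouillet_v1.0, the Ensembl sheep assembly, with Salmon, and deposited TPM values, which sum to 1000000 in each library. The Salmon version is not given in the sources used here. Groups and numbers of fetuses were taken from the sample titles. In the paper, counts were normalized to a log2 scale before groups were compared. TPM keeps no counts, so that step could not be repeated.

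TPM values were filtered at 1 TPM in 3 libraries, which left 17291 transcripts, and limma 3.58.1, run in R 4.3.3, was fitted to log2(TPM + 1) with eBayes and its trend option, 12 residual degrees of freedom and 7 contrasts. Benjamini-Hochberg adjustment ran over all 17291. Single values were tested by exact permutation (Python 3.11.15, scipy 1.17.1 for the check of the test), two-sided. The fit was tested on simulated data. The members, gene lists and tests were chosen with earlier results of these data known. Named transcripts are the 2 members, the 7 other usable markers of the same table of the study, ND5, ND6, and the transcripts most like each member. TCF21 was left out because its printed identifier is that of CIDEA-202. Transcripts were named from the identifiers the study prints, since the deposited table and the gene table at hand pair no other transcript with a gene. Only 7 of the 138 distinct genes in the lists could thus be matched, and directions were not counted over the lists. No sequence of either gene was at hand. Alternatives covered the pseudocount, filter, scaling, variance model, library weights, samples, replicate block, fold threshold and each library left out.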

Additional observations from a re-analysis of the deposited data

Results flagged for a closer look

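The third MC fetus stood apart from the other 3 MC fetuses in HOXC9. Its value was 6.94 TPM, and the next highest of the group was 3.80 TPM, a gap of most of the group's range. Of 8 groups examined, 4 for each transcript, this was the one flagged, where chance flags about 5% of groups. The same fetus had the highest THY1-202 of the males, 13.6 TPM, the lowest FABP4 of all fetuses, 1416 TPM, and the highest median-of-ratios scaling factor of the 16 libraries, 1.23. The part of these in its HOXC9 value was not tested. Without this fetus, HOXC9 in MC against FC had a log2 fold change of -1.19 (limma adjusted p = 0.000107) in place of -0.995.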

How the results depend on the processing

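HOXC9 kept its direction and call in MC against FC, in MFGR against FFGR and in males against females under every alternative run. Its log2 fold changes were -1.14 to -0.86, -1.28 to -0.81 and -1.21 to -0.84, and -1.19 to -0.92, -1.19 to -0.96 and -1.14 to -0.98 with 1 library left out. No alternative fit gave a call for leptin. Leptin in MC against FC, 0.10 as reported, was -0.064 with a weight for each library and ran from -0.15 to 0.38 with 1 library left out. The HOXC9 interaction, -0.09 as reported, was 0.051 with quantile normalization, 0.084 with a weight for each library, and -0.20 to 0.10 with 1 library left out. Leptin in FFGR against FC ran from -0.99 to -0.92, and in MFGR against FFGR, 0.70 as reported, it was 0.93 with quantile normalization.

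Ratios moved with the reference transcript, whose change they include. For leptin, FABP4 gave -1.62 in MFGR against MC (exact p = 0.0286), 0.045 in FFGR against FC and -0.60 in MFGR against FFGR, and the sum of ADIPOQ, FABP4 and UCP1 gave 0.70 in MC against FC (exact p = 0.0286). For HOXC9 in FFGR against FC, FABP4 gave 0.77 and the sum 0.21. For HOXC9 in MFGR against FFGR, FABP4 gave -2.38 and the sum -1.50 (exact p = 0.0286 each). A pseudocount of 0.1 TPM gave -1.05 for HOXC9 in MC against FC (exact p = 0.0286). With 1 library left out, the leptin ratio ran from -0.087 to 0.64 in MC against FC and from -0.45 to 0.20 in MFGR against MC, and the HOXC9 ratio from -1.09 to -0.72 in MC against FC, -0.26 to 0.10 in MFGR against MC and -0.85 to -0.56 in MFGR against FFGR.

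In MC against FC 3106 transcripts were called, 934 higher and 2172 lower in MC. The split was 1223 and 1976 with median-of-ratios scaling, 1505 and 1833 without the mitochondrial transcripts, and 1936 and 1577 with quantile normalization, which moved the median of all tested transcripts from -0.07 to 0.10. In MFGR against MC 8 were called, 30 with median-of-ratios scaling, 103 without the mitochondrial transcripts, 206 with a weight for each library, 3 with only the groups compared, 4 with no filter or with the replicate block, and 0 without the first MC library to 116 without the second. In FFGR against FC it was 4, and 1 with the filter at 5 TPM, with quantile normalization or with the replicate block, and 1 to 23 with 1 library left out, the last without the first of FFGR. For males against females it was 4016, and 6633 with no minimum fold. For the interaction it was 2, and 0 or 1 with the filter at 5 TPM, quantile normalization or the replicate block, and 1 to 8 with 1 library left out. For growth-restricted against control it was 0, and 1 to 4 with 5 other settings, and 0 to 6 with 1 library left out.

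With the replicate number as a block, the HOXC9 fold changes were the same and adjusted p was 0.00214 in MC against FC and 0.00102 in MFGR against FFGR, and neither transcript changed call. Fetuses with the same number did not deviate together more than others did. Their correlations were -0.13 to 0.17 over 24 pairs, of which 2 were above 0.1. Pairs with different numbers had -0.21 to 0.19 over 72 pairs, of which 7 were above 0.1. Of 16 libraries, 5 correlated best with their own number. With depth unknown, counting error could not be separated out.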

Other observations

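In the females, leptin and CIDEA-201 had r = -0.843 over 8 libraries (exact permutation p = 0.00709, adjusted p = 0.106 over 30 relations, rho = -0.810 with exact p = 0.0218, adjusted p = 0.279). Without the third and the fourth FC fetuses, the 2 farthest from the median CIDEA-201, r was -0.538. In the males r was -0.0344 (exact p = 0.933, adjusted p = 0.954). CIDEA-201 was at 75.3 to 115 TPM in FC and at 111 to 128 TPM in FFGR. The 8 females hold both conditions, so the r of the females includes the difference between FC and FFGR. Over the 16 libraries, after the group means were subtracted, r was -0.298.

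In the males, HOXC9 had r = 0.697 with CIDEA-202 (exact p = 0.0443, adjusted p = 0.222), r = 0.706 with THY1-201 (exact p = 0.0310, adjusted p = 0.187) and r = -0.797 with FABP4 (exact p = 0.0173, adjusted p = 0.173). None of these passed after adjustment. Without the 2 males farthest from the median of the other transcript, r was 0.881, 0.305 and -0.218. In the females the same 3 values of r were -0.0259, 0.0809 and 0.588.

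The transcript whose log2 profile over the 16 libraries was most like that of leptin was ENSOART00020015614 (r = 0.913, and 0.920 after subtraction of the group means), which the table does not pair with a gene. By mean TPM its order was FC (3.98), MC (3.59), MFGR (2.94) and FFGR (1.65). The transcript most like HOXC9 was ENSOART00020026292 (r = 0.971), also not paired with a gene, with means of 0.492 in MC, 0.217 in MFGR, 2.60 in FC and 2.34 TPM in FFGR. After subtraction of the group means, ENSOART00020000241 came first for HOXC9 (r = 0.934), and it is not paired with a gene either.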
